A study of Homo sapiens with 197 samples.

Results

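In a screen of activated kinases, 11 wells each received 1 tyrosine kinase, and they are described here against the rest of the screen. The 11 wells were chosen by the kinase named in the label, with no measured value: 4 receptor tyrosine kinases (AXL, RET, FGFR1 and EPHA4), 3 kinases of the SRC family (LCK, FGR and BLK) and 4 other cytoplasmic tyrosine kinases (PTK2, MATK, BMX and TYK2). They are 11 wells out of all samples of the series, or 5.58% of them, and 6.01% of the kinase wells that entered the comparisons; the rest of these, 94% of the kinase wells, carried other kinases and are called the other kinase wells. IMR90 cells, normal human fetal lung fibroblasts in culture, were infected with a retrovirus carrying 1 kinase joined to a myristoylation signal and a Flag tag, and RNA was collected 4 days later. A myristoylation signal tethers a protein to membranes, so every kinase of the collection, receptor or not, was a membrane-directed form. The controls were 2 wells of IMR90 cells that, per the labels, received the empty vector, and a further control lane, named as the second control but numbered as the first, was left out. RNA was counted on a Nanostring panel, in which each probe pair is counted as single molecules without amplification. Each kinase entered with 1 lane, so the well was the unit of every test, and the spread in it is the spread between kinases, which also holds well and lane effects.

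Tyrosine kinases transfer phosphate to tyrosine residues of other proteins and of themselves. Receptor tyrosine kinases span the membrane and are switched on by an extracellular ligand: AXL by GAS6, RET by ligands of the GDNF family, FGFR1 by fibroblast growth factors and EPHA4 by ephrins on neighbouring cells. Cytoplasmic tyrosine kinases have no ligand-binding part of their own and relay signals from receptors and adhesion sites. LCK, FGR and BLK belong to the SRC family and are best known from T cells, myeloid cells and B cells. PTK2 is the focal adhesion kinase, MATK phosphorylates the inhibitory tail of SRC-family kinases, BMX belongs to the TEC family and TYK2 to the Janus kinases that act below interferon and interleukin receptors.

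In all, 58 rows of the panel were tested: 42 tissue-restricted genes, most of them active in testis or placenta and silent in fibroblasts, 15 further rows, and B2M, the light chain of MHC class I molecules. Values are normalized counts, that is counts scaled by the positive spike-in controls of the lane and then by the housekeeping genes PGK1, TBP and TUBB2A. Of these, 17 rows were called detected, since their median count over the kinase lanes exceeded 20.6, the median level of the negative controls (mean + 2 SD of 8 probes). They were ADAM12, ALAS1, ATAD2 and PLCZ1 among the tissue-restricted genes, 12 of the 15 further rows, and B2M. The names of the 15 further rows carry a limit. The row named ZBTB33 lay between 6090 and 87196 normalized counts in the tyrosine kinase wells and at 8.3 and 17.4 in the controls, below the negative-control level in both. The row named MyrFlag, the name of the tag, lay between 445 and 659 in the same wells and at 631 and 677 in the controls. Names and counts of these 15 rows could not be shown to be in the same order, so they are given by row name only, with no gene function.

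The total counts of the tyrosine kinase wells were high. Their total counts ran from 173840 to 340763 with a median of 228093, against a median of 157258 and a range of 29629 to 308043 in the other kinase wells, and 11 of 11 lay above that median (ratio of geometric means 1.51, permutation test over 100000 relabellings of the wells, two-sided, adjusted p = 0.00165 over 5 lane measures). Total counts include the abundant rows. B2M alone gave 135864 of the 308380 counts of AXL and 28483 of the 258489 of EPHA4, where the ZBTB33 row gave 91398. The geometric mean of the positive controls had a median of 2023 over the 11 lanes, against 1794 in the other kinase wells. The factor that brings a lane to the common scale uses only the positive controls and the normalizers. It was low, 0.5682 to 1.01, and 10 of 11 lay below the median of the other wells (ratio 0.733, adjusted p = 0.00945 by the same permutation test). After scaling to the positive controls alone, PGK1 was 1.18-fold higher than in the other wells (adjusted p = 0.0114), TUBB2A 1.13-fold higher (adjusted p = 0.0379) and TBP 1.08-fold higher (adjusted p = 0.141; same permutation test over the wells). The mean of all 3 normalizers was above that of the other wells, and a row that did not move with them was scaled downwards. The relabellings took no account of position in the series, and 10 of 11 wells carry sample numbers up to 96. In blocks of 12 consecutive numbers, the median factor of the other wells ran from 0.717 to 0.977 up to number 96. Above that number it ran from 0.852 to 1.49. The part of position in these lane differences was not tested.

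B2M was higher in the tyrosine kinase wells, and 5 rows were lower: those named KCNA1, Tet2, PLA2R1, NeoR and ITPR2. These were the 6 of 58 rows (10.3%) that passed an adjusted p of 0.05 in edgeR's quasi-likelihood test of the 11 wells against the other kinase wells. B2M was 1.34-fold higher (95% interval 1.11 to 1.63), with a log2 fold change of 0.43 ± 0.14 (SE) and adjusted p = 0.0323. The KCNA1 row was 0.749-fold (0.655 to 0.857; log2 fold change -0.42 ± 0.10, SE, adjusted p = 0.00232). The Tet2 row stood at 0.869-fold (adjusted p = 0.00516), PLA2R1 at 0.846-fold (adjusted p = 0.00516), NeoR at 0.827-fold (adjusted p = 0.0158) and ITPR2 at 0.867-fold (adjusted p = 0.0466). The median log2 fold change of all 58 rows was -0.13, and 12 of 58 lay above 0, so the panel as a whole was shifted slightly downwards, and the test of each row was against 0 and not against that median. The Tet2 and ITPR2 rows, at log2 fold changes of -0.20 and -0.21, lay close to it. With the positive controls alone the median was 0.03, B2M alone passed (log2 fold change 0.65, adjusted p = 0.016), and none of the 5 lower rows did. The ITPR2 row lost its call in 15 of 29 other fits, 7 of them fits without 1 of the wells, and NeoR in 8 of 29, 3 of them without 1 well. The fold changes of the 6 rows under each way of scaling are drawn in the plot of other settings.

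**Figure D1:**
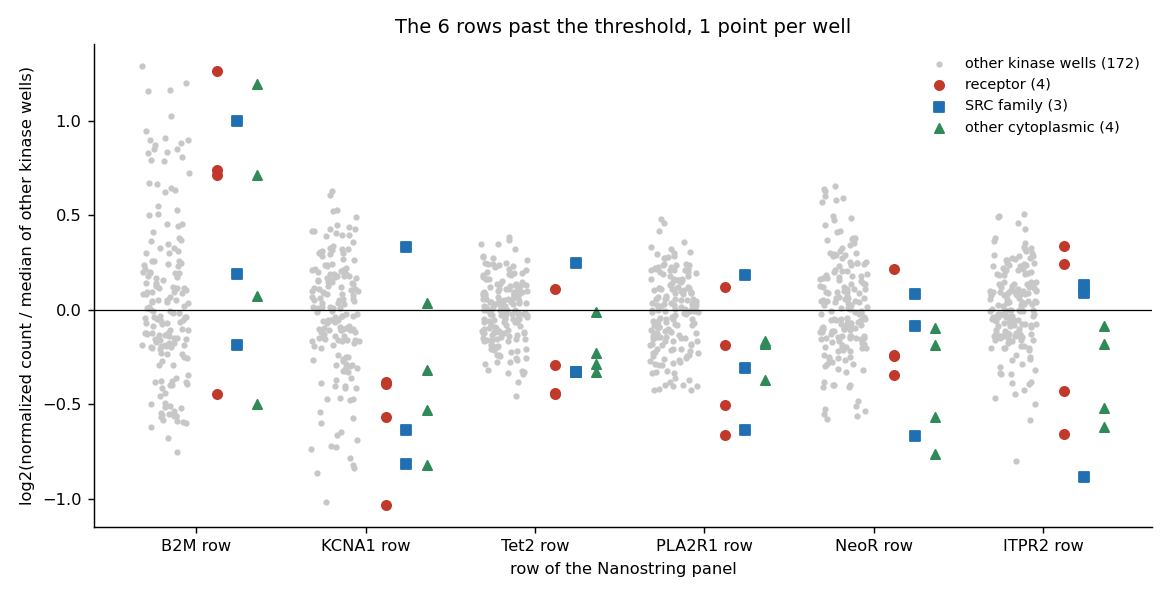
The 6 rows that passed the test, as log2 of a well's normalized count over the median of the other kinase wells; grey points are the other kinase wells, coloured points the 4 receptor, 3 SRC-family and 4 other cytoplasmic tyrosine kinase wells. B2M spreads over more than 1 log2 unit within each class, and the KCNA1 row lies below 0 in 9 of 11 wells.

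The rise of B2M was uneven over the 11 wells. Among the receptor wells it stood at 88659 normalized counts in AXL, 61838 in FGFR1, 60599 in RET and 27174 in EPHA4. Among the SRC-family wells it stood at 73965 in BLK, 42242 in FGR and 32573 in LCK. The other cytoplasmic wells held 84747 in TYK2, 60657 in MATK, 38955 in BMX and 26218 in PTK2. The controls held 40195 and 32734, and the other kinase wells had a median of 36997 with a range of 21945 to 90472. AXL ranked 2nd, TYK2 4th and BLK 8th from the top of all kinase wells, whereas PTK2 and EPHA4 ranked 21st and 24th from the bottom. The 6 wells from RET upwards stood at 60599 or more, the other 5 lay among the bulk of the screen, and each of the 3 classes held wells of both kinds.

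The position of a well in the series moved with B2M as well. The labels number the samples, and wells were grouped in blocks of 12 consecutive numbers; nothing in the labels calls these batches. BLK and TYK2 belong to the wells numbered 73 to 84, whose other kinases had a B2M median of 60053 and a range of 33853 to 85079, so BLK was 1.23-fold and TYK2 1.41-fold of its own block. AXL was 2.85-fold of its block median of 31159, where the other 7 wells ran from 26020 to 40142. MATK was 1.85-fold of 32779 and, like AXL, exceeded every other kinase of its block. FGFR1 was 1.83-fold of 33756 and RET 1.49-fold of 40674, each with at least 1 other well of the block above it. In all, 9 of 11 wells exceeded the B2M median of their own block, by a median of 1.23-fold. With the block as a covariate the log2 fold change was 0.44 (adjusted p = 0.00765), and with the wells numbered 73 to 84 left out it was 0.31 (adjusted p = 0.274). The call was also lost when AXL, FGFR1, RET, MATK, BLK or TYK2 was left out, with log2 fold changes of 0.33 to 0.41 and adjusted p = 0.059 to 0.135, and with limma on the log2 values (log2 fold change 0.38, adjusted p = 0.0746). PGK1, scaled by the positive controls alone, was high in the same wells: 15686 in BLK, 14759 in MATK, 13155 in TYK2, 13067 in RET, 12716 in AXL and 11639 in FGFR1, against 7365 to 10245 in the other 5 and a median of 8983 in the other kinase wells. Normalized without PGK1, the log2 fold change of B2M was 0.47 (adjusted p = 0.0325). Of the 3 normalizers PGK1 was the most raised in the 11 wells, so leaving it out was bound to raise that value. The part of PGK1 in the B2M values was not tested.

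**Figure D2:**
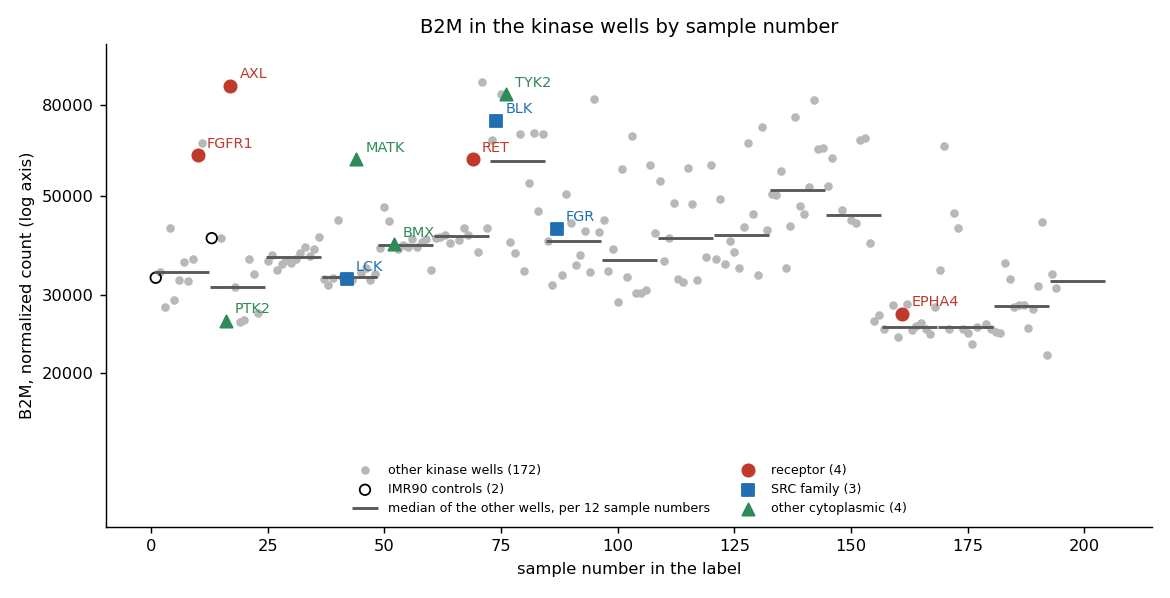
B2M normalized count on a log axis against the sample number in the label; grey points are the other kinase wells, dark bars the median of the other kinase wells in each block of 12 numbers, open circles the 2 IMR90 controls, and coloured symbols the 11 tyrosine kinase wells. AXL at 88659 and MATK at 60657 lie above every other well of their blocks, while BLK and TYK2 lie in a block with a median of 60053.

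Of the lower rows, the KCNA1 row lay below the median of a well's own block in the most wells. Its normalized counts were 40.1 in FGFR1, 39.8 in AXL, 35.3 in EPHA4 and 25.5 in RET among the receptors. The SRC-family wells held 65.7 in LCK, 33.6 in FGR and 29.7 in BLK. The other cytoplasmic wells held 53.6 in BMX, 41.9 in PTK2, 36.1 in TYK2 and 29.5 in MATK. The controls held 58.9 and 56.3 and the other kinase wells a median of 52.2, so 9 of 11 wells lay below that median and 10 of 11 below the median of their own block. RET had the lowest value of all kinase wells, with a count of 39 before scaling against a negative-control level of 24.2 in its lane. LCK, ranked 18th from the top, stood apart from the other wells. The call held in all 11 fits that left out 1 well (adjusted p up to 0.0232) and with the block as a covariate (log2 fold change -0.40, adjusted p = 0.0029).

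The Tet2 row was lower in a narrower range. It lay between 484 in FGFR1 and 782 in LCK, with a median of 538, and the median of the other kinase wells was 659. In all, 9 of 11 wells lay below that median, LCK and EPHA4 (712) being the exceptions, and 8 of 11 lay below their own block. The PLA2R1 row ran from 312 in RET to 563 in LCK against a median of 494, with LCK and EPHA4 (537) again above it. The NeoR row ran from 102.3 in MATK to 201.3 in EPHA4 against 173.3, and once more LCK (183.8) and EPHA4 alone exceeded the median of the other wells. The ITPR2 row ran from 341 in BLK and 399 in FGFR1 to 745 in RET and 795 in EPHA4, against a median of 629. LCK and EPHA4 had the highest lane factors of the 11 (1.01 and 0.954), and the part of that factor in these values was not tested. With the block as a covariate KCNA1, Tet2 and B2M passed, while PLA2R1, NeoR and ITPR2 did not. That fit also called 4 further rows, PPM1D lower (log2 fold change -0.28) and the tissue-restricted DDX53, PLCZ1 and STK31 higher (0.39, 0.32 and 0.34).

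**Figure D3:**
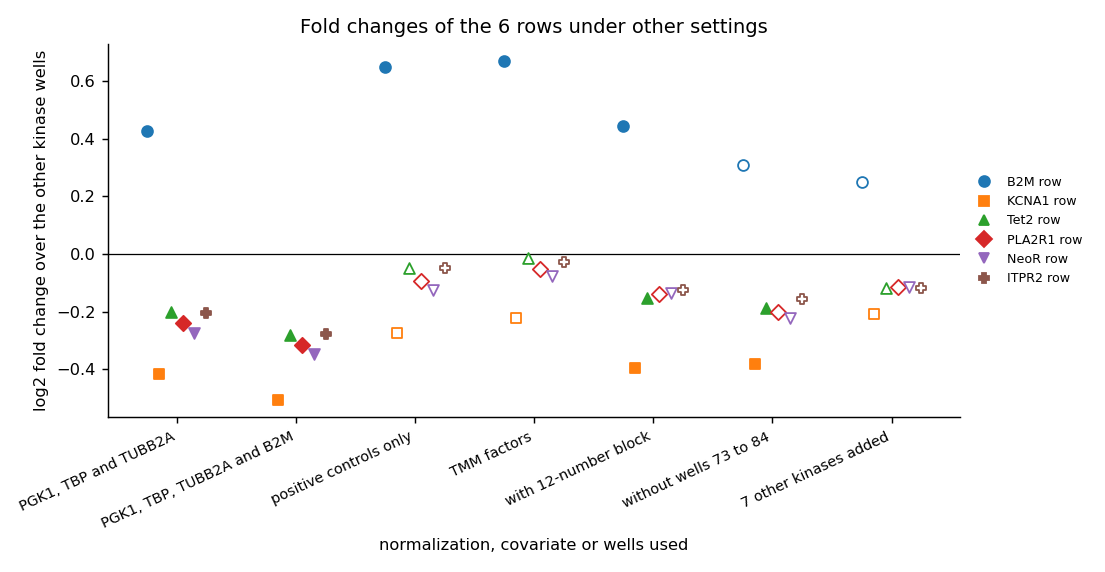
Log2 fold change of the 11 tyrosine kinase wells over the other kinase wells for the 6 rows, under 7 ways of scaling, adjusting or choosing wells; filled symbols passed an adjusted p of 0.05 and open symbols did not, and B2M has no value where it is itself a normalizer. B2M stays above 0 and the other 5 rows below 0 throughout, and none of the 6 passes once 7 further tyrosine kinases are added.

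None of the 42 tissue-restricted genes passed the test, against 10.3% of all rows; 5 of 42 had an unadjusted p below 0.05, 9 of 42 had a log2 fold change above 0 and their median was -0.12, near the -0.13 of all rows. DESeq2 and limma on the log2 values also called none of them, but 7 of 29 other fits called 1 to 5, and their direction depended on the fit. DDX53, PLCZ1 and STK31 were higher with the block as a covariate (adjusted p = 0.049 each), and ADAM2, DDX53 and PLCZ1 were higher in the wells numbered up to 96. With B2M as a further normalizer ALAS1, BRDT, DAZL, PRAME and SSX2 were lower, and with the negative controls subtracted DAZL, MAGEA3, PRAME, TPTE and XAGE1 were lower. In all, 4 of these genes were called higher and 9 lower in at least 1 fit. ADAM12, a placental metalloprotease, lay between 33.7 in FGFR1 and 51.5 in EPHA4, with a median of 39.7, beside a median of 42.6 in the other kinase wells and 33.2 and 44.4 in the controls (log2 fold change -0.20 ± 0.16, SE, adjusted p = 0.516). The highest ADAM12 value among the other kinase wells was 478. ATAD2, a chromatin ATPase linked to proliferation, ran from 117.8 in TYK2 and 124.2 in BLK to 206 in LCK and 229 in PTK2, the last ranked 7th from the top of all kinase wells. ALAS1, the first enzyme of haem synthesis, lay between 309 in FGFR1 and 511 in RET against a median of 456 (log2 fold change -0.12 ± 0.07, SE, adjusted p = 0.299).

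Of the 11 wells, EPHA4 had the highest median over the 41 rows at background, 13.4 normalized counts. This well had the highest value of the 11 in 22 of the 41 rows, AXL in 9 and TYK2 in 4, and EPHA4 was among the 10 highest of all kinase wells in 12 of them. ROPN1, a sperm-flagellum protein, stood at 34.3 normalized counts in EPHA4 and at 4.2 to 16.2 in the other 10 wells. MAEL and PIWIL1, germline factors that act with Piwi-interacting RNAs, stood at 29.6 and 24.8 in EPHA4, against 3.5 to 15.3 and 3.2 to 8.0 elsewhere. MAGEA12 and CTAG1B, antigens of the cancer/testis type, stood at 29.6 and 28.6, against 2.8 to 11.9 and 1.9 to 13.1. The row named ZBTB4 was higher still, at 36.3 against 4.3 to 12.2. Other tissue-restricted rows were not high in EPHA4, among them PRAME and XAGE1 at 4.8, SSX2 at 5.7 and ADAM2 at 11.4. The higher of these counts were close to the negative-control level of the lane, 24.2. In EPHA4 7 of the 41 rows exceeded it, within the 0 to 21 rows (median 2) found in the other kinase wells. TIE1, a tyrosine kinase outside the 11, had a median of 13.3 over the 41 rows and was among the 10 highest in 8. TNK2, SYK and NTRK3, also tyrosine kinases outside the 11, had 9, 8 and 8 rows above the level of their own lanes. EPHA4 also had the ZBTB33 row at 87196, ranked 4th of all kinase wells, beside 6090 to 39954 in the other 10 wells. Whether that row bears on the weak rows was not tested.

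Receptor wells were not told apart from SRC-family wells. With 4 wells against 3, no row passed an adjusted p of 0.05 in edgeR's quasi-likelihood test (0.0% of 58), 1 had an unadjusted p below 0.05, and DESeq2 and limma called none. B2M was 1.201-fold in the receptor wells, with an interval of 0.731 to 1.97, and exact permutation over the 35 ways to choose 4 of the 7 wells gave p = 0.686 (two-sided). UHRF1 stood at 1007 in EPHA4, 848 in RET, 812 in AXL and 619 in FGFR1, and at 755 in FGR, 677 in LCK and 490 in BLK, which gave 1.28-fold (0.96 to 1.71; exact permutation p = 0.2). The KCNA1 row was 0.828-fold (0.599 to 1.14) and the Tet2 row 0.909-fold (0.76 to 1.09). ATAD2 was 0.947-fold, from 0.71 to 1.26. The groups did not overlap in 2 of 58 rows (3.45%), ADCY10 and MAGEA4, named after their values were seen, and both were higher in the receptor wells at 11.1 to 18.3 and 13.1 to 18.9 normalized counts, below the negative-control level. Their exact p = 0.0286, the smallest that 35 choices allow, rose to 0.8286 after adjustment over the 58 rows. Intervals of this width do not show that the classes act alike.

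**Figure D4:**
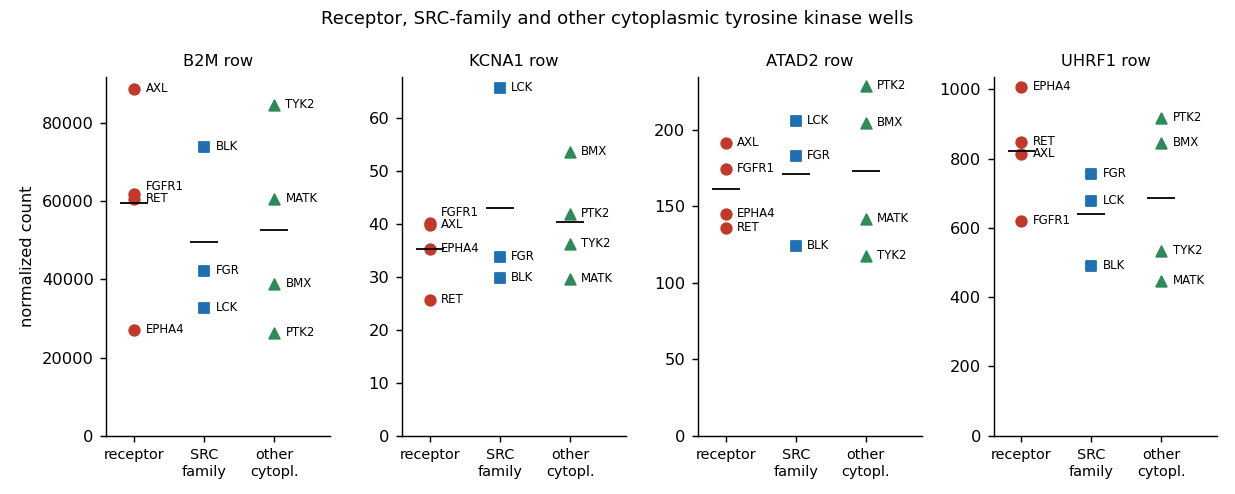
Normalized counts of B2M and of the rows named KCNA1, ATAD2 and UHRF1 in the 11 wells, by class of kinase; each point is 1 well and the bar is the mean of the class. The 3 classes overlap in every panel, and the wells with high B2M (AXL, TYK2, BLK) come from different classes.

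Likeness over 15 detected rows, taken as the root mean square difference of log2 values without the ZBTB33 and ZBTB38 rows, was used to find the nearest well of each of the 11. The nearest kinase well lay outside the 11 in 10 of 11 cases, and 94.5% of the wells that could be nearest lay outside them. EPHA4 was nearest to YES1 (0.228), a tyrosine kinase of the SRC family outside the 11. The closest were RIOK3 to BMX (0.0914), PKM2 to TYK2 (0.107), PCK2 to FGR (0.112) and PIM1 to LCK (0.114). BLK was nearest to MATK (0.245). For BMX, PTK2, FGFR1, FGR, TYK2 and EPHA4 the nearest well came from the same block of 12 numbers. BLK and LCK, both of the SRC family, were the pair farthest apart among the 11, at 0.803. These distances are descriptions, and wells of a block also share their position in the series.

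Extreme values were counted with the Z-score of each row and well over the kinase and control wells. Of 638 pairs in the tyrosine kinase wells, 13 had an absolute Z-score above 2.5 (2.04%), against 1.15% of 9976 pairs in the other kinase wells. Among detected rows, 11 of the 13 pairs were found, 5.88% of the detected pairs of these wells, against 35 of 2924 (1.2%) in the other kinase wells. Among the tissue-restricted rows the order was the reverse, with 3 of 462 pairs (0.649%) against 1.18% of 7224 pairs. Of the 13, 11 were low values. The lowest was the ITPR2 row in BLK (-3.74, at 341), the only pair beyond 3.5. FGFR1 held 3, in the rows ITPR2 (-2.77, at 399), PPM1D (-2.61, at 71.2) and ALAS1 (-2.57, at 309). RET held PLA2R1 (-2.99, at 312) and KCNA1 (-2.89, at 25.5), BLK also held PLA2R1 (-2.88, at 318), and MATK held NeoR (-2.82, at 102.3) and UHRF1 (-2.67, at 445). PTK2 held ITPR2 (-2.61, at 410) and LCK held SPACA3, a weak row with a count of 2 (-2.60). The high values were B2M in AXL (2.60) and PIWIL1 in EPHA4 (2.51). FGR, BMX and TYK2 held none; their most distant detected rows were Tet2 in FGR (-1.79), Tet3 in BMX (-1.55) and B2M in TYK2 (2.46). With positive controls alone the 13 pairs became 2.

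Against the controls, 2 of 58 rows passed (3.45%). The ZBTB33 row was above the negative-control level in 11 of 11 wells and in neither control, and its fitted log2 fold change of 11.13 (adjusted p = 2.82e-06) has background counts as its denominator. Against the other kinase wells this row did not pass (log2 fold change 0.30, adjusted p = 0.697, edgeR's quasi-likelihood test). Its call against the controls is therefore not particular to the 11 wells. The Tet2 row was 0.743-fold of the controls, which held 755 and 795 (adjusted p = 0.0262), but with positive controls alone the log2 fold change was 0.03 (adjusted p = 0.851). The Tet2 median of the other kinase wells, given above, also lay below both controls. B2M was 1.49-fold of the 2 controls, with an interval of 0.888 to 2.5 (adjusted p = 0.43). None of the 42 tissue-restricted genes passed. These values share the 11 wells with the comparison against the other kinases. Of the 9 rows that bear the names of chromatin factors, 1 passed against the other kinase wells (Tet2), beside 10.3% of all rows, and 2 passed against the controls (Tet2 and ZBTB33), beside 3.45%. These counts are by row name, and nothing is read from them about the named genes.

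Tyrosine kinases outside the 11 were carried by 7 further wells: SYK, FRK, BTK, YES1, TIE1, TNK2 and NTRK3. Against the kinase wells of neither set, B2M had a log2 fold change of -0.08 ± 0.18 (SE, adjusted p = 0.868) and the KCNA1 row 0.08 ± 0.12 (SE, adjusted p = 0.868). The direction of B2M depended on the fit: its log2 fold change was 0.25 with the block as a covariate (adjusted p = 0.562) and 0.12 with positive controls only. TNK2 stood at 1.82-fold, SYK at 1.73-fold and NTRK3 at 1.68-fold of the B2M median of their own blocks. Only 1 of 58 rows passed (1.72%), the DNMT1 row, 1.40-fold higher at 13.2 to 27.7 normalized counts, near the negative-control level. Tested directly, the 11 wells differed from the 7 in 4 of 58 rows (6.9%), all lower in the 11: KCNA1 (0.709-fold, adjusted p = 0.0325), DNMT1 (0.662-fold, adjusted p = 0.0325), PLA2R1 (adjusted p = 0.042) and NeoR (adjusted p = 0.042). B2M was 1.41-fold of the 7 (1.03 to 1.94, adjusted p = 0.213). With the block as a covariate none of the 58 rows passed, and the 7 wells carry numbers above 96 whereas 10 of the 11 carry lower ones, so class and position cannot be told apart there. The 7 wells also had lane factors of 0.947 to 1.23. With the 7 added to the 11, none of the 58 rows passed against the remaining wells, and the log2 fold change of B2M was 0.25 (adjusted p = 0.24). In the direct test B2M, Tet2 (adjusted p = 0.134) and ITPR2 (adjusted p = 0.27) did not pass either, so these rows were not shown to differ between the 11 and the 7.

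**Figure D5:**
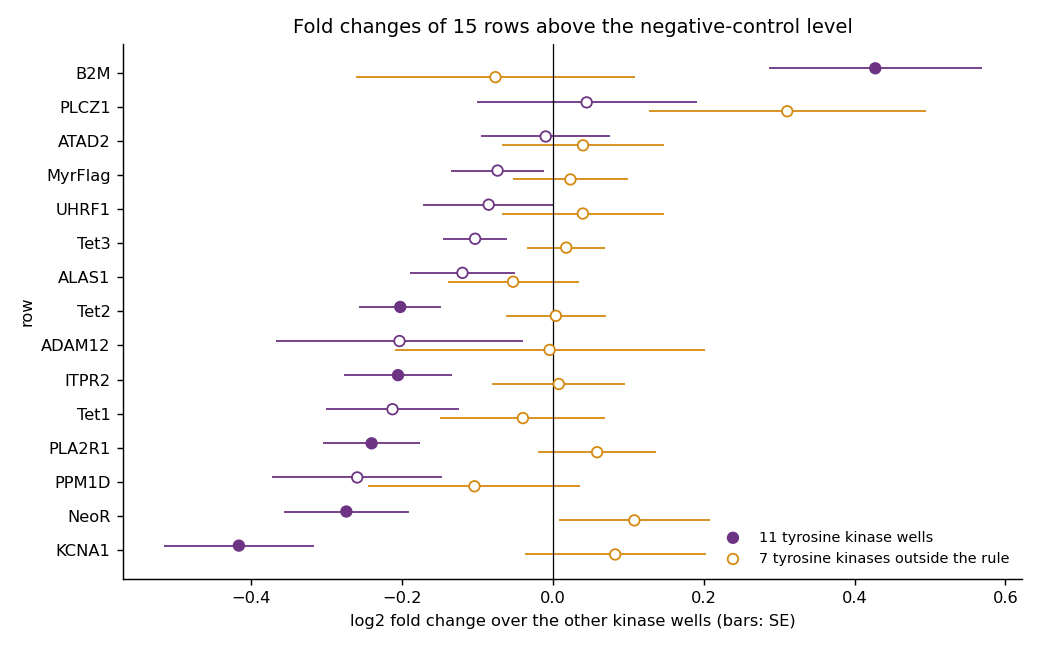
Log2 fold changes with SE over the other kinase wells for 15 rows above the negative-control level, without the ZBTB33 and ZBTB38 rows; purple is the 11 tyrosine kinase wells, orange the 7 tyrosine kinases outside them, and filled symbols passed an adjusted p of 0.05. The purple B2M value lies at 0.43 and the purple KCNA1 value at -0.42, while the orange values of these rows lie at -0.08 and 0.08.

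A further lane bears the name PTK2, and it was left out of both sides. Its label gives sample number 4, whereas the PTK2 well described above carries number 16. Over 15 detected rows its root mean square difference in log2 was 0.717 from that PTK2 well, which was the 15th farthest of all kinase wells. The difference was 0.196 from the AKT1 well that carries number 4, the nearest of all. Over all 17 detected rows, with ZBTB33 and ZBTB38, the PTK2 well was the 78th farthest (0.695). The AKT1 well was again the nearest (0.193). The lane was therefore not used as a repeat of PTK2, and no kinase of the 11 had a second lane to measure the error of a single one.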

How the data were processed

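RNA of IMR90 wells had been counted by the authors on a Nanostring nCounter panel, and the deposited lane files hold raw counts of 75 probes. The deposited normalized table was not used. Counts were scaled, as in the study's methods, by the geometric mean of the 6 positive controls and then of PGK1, TBP and TUBB2A. The HK1 well, with almost no housekeeping counts, the second lanes named PIK3CG and PTK2 and a further control lane (named as the second control, numbered as the first) were left out. Wells were grouped by the kinase in the label: 11 tyrosine kinase wells and 172 other kinase wells of 197 samples. Counts were tested with edgeR 4.0.16 (quasi-likelihood, lane factors as offsets, Benjamini-Hochberg over 58 rows) in R 4.3.3. The fits were tested on simulated counts. Of 1.5-fold changes in detected rows, the fit of the 11 wells recovered 92% and that of receptor against SRC-family wells 44.4%. In rows not detected these shares were 76% and 1.56%. They refer to counts, which in such rows are mostly background. Recovery of a change in the transcript alone was not tested there. DESeq2 1.42.0, limma 3.58.1 on log2(normalized count + 1), other scalings, filters and blocks were alternatives. The closing section gives their effect. Receptor and SRC-family wells were also compared by exact permutation, and lane measures by permutation. Z-scores were taken over 183 kinase and 2 control wells. Total counts per lane of the kinase wells ran from 29629 to 340763, and rows near the negative controls carry mostly background. With 1 lane per kinase, p-values rest on the spread between wells, in which effects of kinase, well, lane and position cannot be separated.

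The wells, gene lists and tests were chosen with earlier results of these data known. The rows named were up to 20 with the smallest p among those past an adjusted p of 0.05, a list of rows taken from the study (ADAM12, ATAD2, ALAS1, B2M, the tag row and the rows of chromatin factors), all pairs with an absolute Z-score above 2.5 and the most extreme detected rows of each well. Normalization without PGK1, TBP or TUBB2A, the fits without the wells numbered 73 to 84 and the direct comparison of the 11 wells with the 7 other tyrosine kinases were chosen after seeing the data.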

Additional observations from a re-analysis of the deposited data

Results flagged for a closer look

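Within the 4 receptor wells the MyrFlag row of FGFR1 stood at 445 normalized counts, apart from 619, 621 and 633 in the other 3. Within the 4 other cytoplasmic wells the PLA2R1 row of TYK2 stood at 382, apart from 436, 437 and 442. These were 2 of 40 sets of 4 wells examined for a value far from the rest, and chance marks about 1 in 20.

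The 11 tyrosine kinase wells differed from the 7 tyrosine kinases outside them in 4 rows, by edgeR's quasi-likelihood test of the difference itself: log2 fold changes were -0.60 for DNMT1, -0.50 for KCNA1, -0.38 for NeoR and -0.30 for PLA2R1. None of the 4 passed with the block of 12 sample numbers as a covariate.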

How the results depend on the processing

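The 6 calls of the 11 wells against the other kinase wells became 13 with B2M as a further normalizer, 1 with positive controls only, 1 with TMM factors, 11 with negative controls subtracted, 10 without TBP as normalizer, 10 with sample numbers up to 96, 2 without the wells numbered 73 to 84 and 0 with the 7 other tyrosine kinases added. Leaving out 1 well gave 3 to 9 calls, the lowest without MATK, BLK or TYK2. KCNA1, Tet2 and PLA2R1 were called in all 11 of those fits, NeoR in 8, B2M in 5 and ITPR2 in 4. B2M was not called by limma. The log2 fold change of B2M was positive in 28 of 28 alternatives (0.25 to 0.67, adjusted p from 0.00042 to 0.274), and that of KCNA1 negative in 29 of 29. ALAS1 turned to 0.059 with positive controls only and 0.077 with TMM factors. The causes were not tested.

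Receptor against SRC-family wells gave 0 calls under every alternative run. There the KCNA1 row ran from -0.48 to 0.15 and Tet2 from -0.28 to 0.079 when 1 well was left out, each above 0 without LCK, and Tet2 turned to 0.056 with positive controls only. The 2 calls against the controls became 1 with 4 housekeeping genes, positive controls only, TMM factors, or without TBP or TUBB2A, and 1 to 3 when 1 well was left out. Tet2 turned to 0.033 with positive controls only. For the 7 other tyrosine kinases, the 1 call became 2 with TMM factors and 0 with limma, negative controls subtracted, detected rows only, the block, without TBP or without wells 73 to 84. B2M turned there to 0.12 with positive controls only and 0.25 with the block. The 4 calls between the 11 and the 7 became 0 with limma, positive controls only, TMM factors, the block, without TBP or without wells 73 to 84. The 13 extreme pairs became 21 with 4 housekeeping genes, 2 with positive controls only and 20 with negative controls subtracted.

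No paired analysis was possible because the labels of the kinase wells carry no replicate number, and the sample numbers that recur belong to second lanes left out of the tests.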
